A study of Mus musculus with 2 samples.

Results

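The genes described here encode the receptors for glutamate and GABA, the main excitatory and inhibitory transmitters of the brain. All features whose symbol names an AMPA (Gria), kainate (Grik), NMDA (Grin), delta (Grid) or metabotropic glutamate (Grm) receptor, or a GABA-A (Gabr) or GABA-B (Gabbr) receptor, were taken, which gave 47 of the 32289 features. They comprised 4 AMPA, 5 kainate, 7 NMDA, 2 delta, 8 metabotropic, 19 GABA-A and 2 GABA-B receptor genes. The tissue was the anterior hypothalamus with the preoptic area of male mice, and single nuclei were profiled with droplet-based RNA sequencing. The aged group was 1 library of nuclei pooled from 5 mice of 22 months, and the young group was 1 library pooled from 5 mice of 3 months. The labels call the young mice wild-type and state no genotype for the aged mice separately. Per the labels' protocols, both pools went through an iodixanol gradient, magnetic myelin removal and sorting of DAPI-stained nuclei.

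Because each age was 1 library, age, pool and library preparation cannot be told apart, and no test between ages could be made. Levels are given as CPM, the UMIs (unique molecular identifiers, 1 per captured RNA molecule) of a gene per 1000000 UMIs of the nuclei in a class. Where a pair of values has no other label, the aged library comes first and the young library second. A ratio between ages is given with a 95% interval from an exact conditional binomial calculation, which covers counting error only and not the spread between mice. A gene is called past the fold where its CPM was at least 25% higher or 20% lower in the aged library and this interval left out a ratio of 1, among genes with at least 50 UMIs over both libraries in the class.

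AMPA, kainate and NMDA receptors are cation channels opened by glutamate and are each built from 4 subunits, while the metabotropic receptors act through G proteins. GABA-A receptors are chloride channels of 5 subunits, most often alpha, beta and gamma or delta, and GABA-B receptors are obligate pairs of Gabbr1 and Gabbr2. In the hypothalamus GABA and glutamate carry most of the fast signalling onto neuroendocrine and preoptic neurons. Glia carry some of these receptors too, and oligodendrocyte precursors are known to receive synapses.

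After removal of barcodes with under 500 genes or over 5% mitochondrial UMIs and of predicted doublets, 8229 aged and 9948 young nuclei were used. Neurons made up 5000 aged and 6424 young nuclei with 46564571 and 55782681 UMIs, oligodendrocytes 1881 and 2133, oligodendrocyte precursors 183 and 254, astrocytes 155 and 387, and microglia 420 and 487 nuclei. The 8 neuronal marker genes summed to 5490 CPM in aged and 5382 CPM in young neurons. A class of 519 aged and 92 young barcodes with median UMI counts of 683 and 708 was left unnamed and out of all comparisons. Its receptor genes summed to 6124 and 6944 CPM, against 22080 and 21310 CPM in neurons. The libraries shared 25 barcode sequences. Neurons were split into 24 sub-clusters formed without the receptor genes, of which 18 were GABAergic, 5 glutamatergic and 1, led by the cholinergic genes Slc5a7 and Chat, mixed. They are called by their leading genes. Only 9 aged nuclei fell in sub-cluster 22 (Pdzrn3 and Slc17a7), beside 133 young ones, so it was not compared between ages on its own, which left 23 sub-clusters with at least 20 nuclei in each library.

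**Figure D1:**
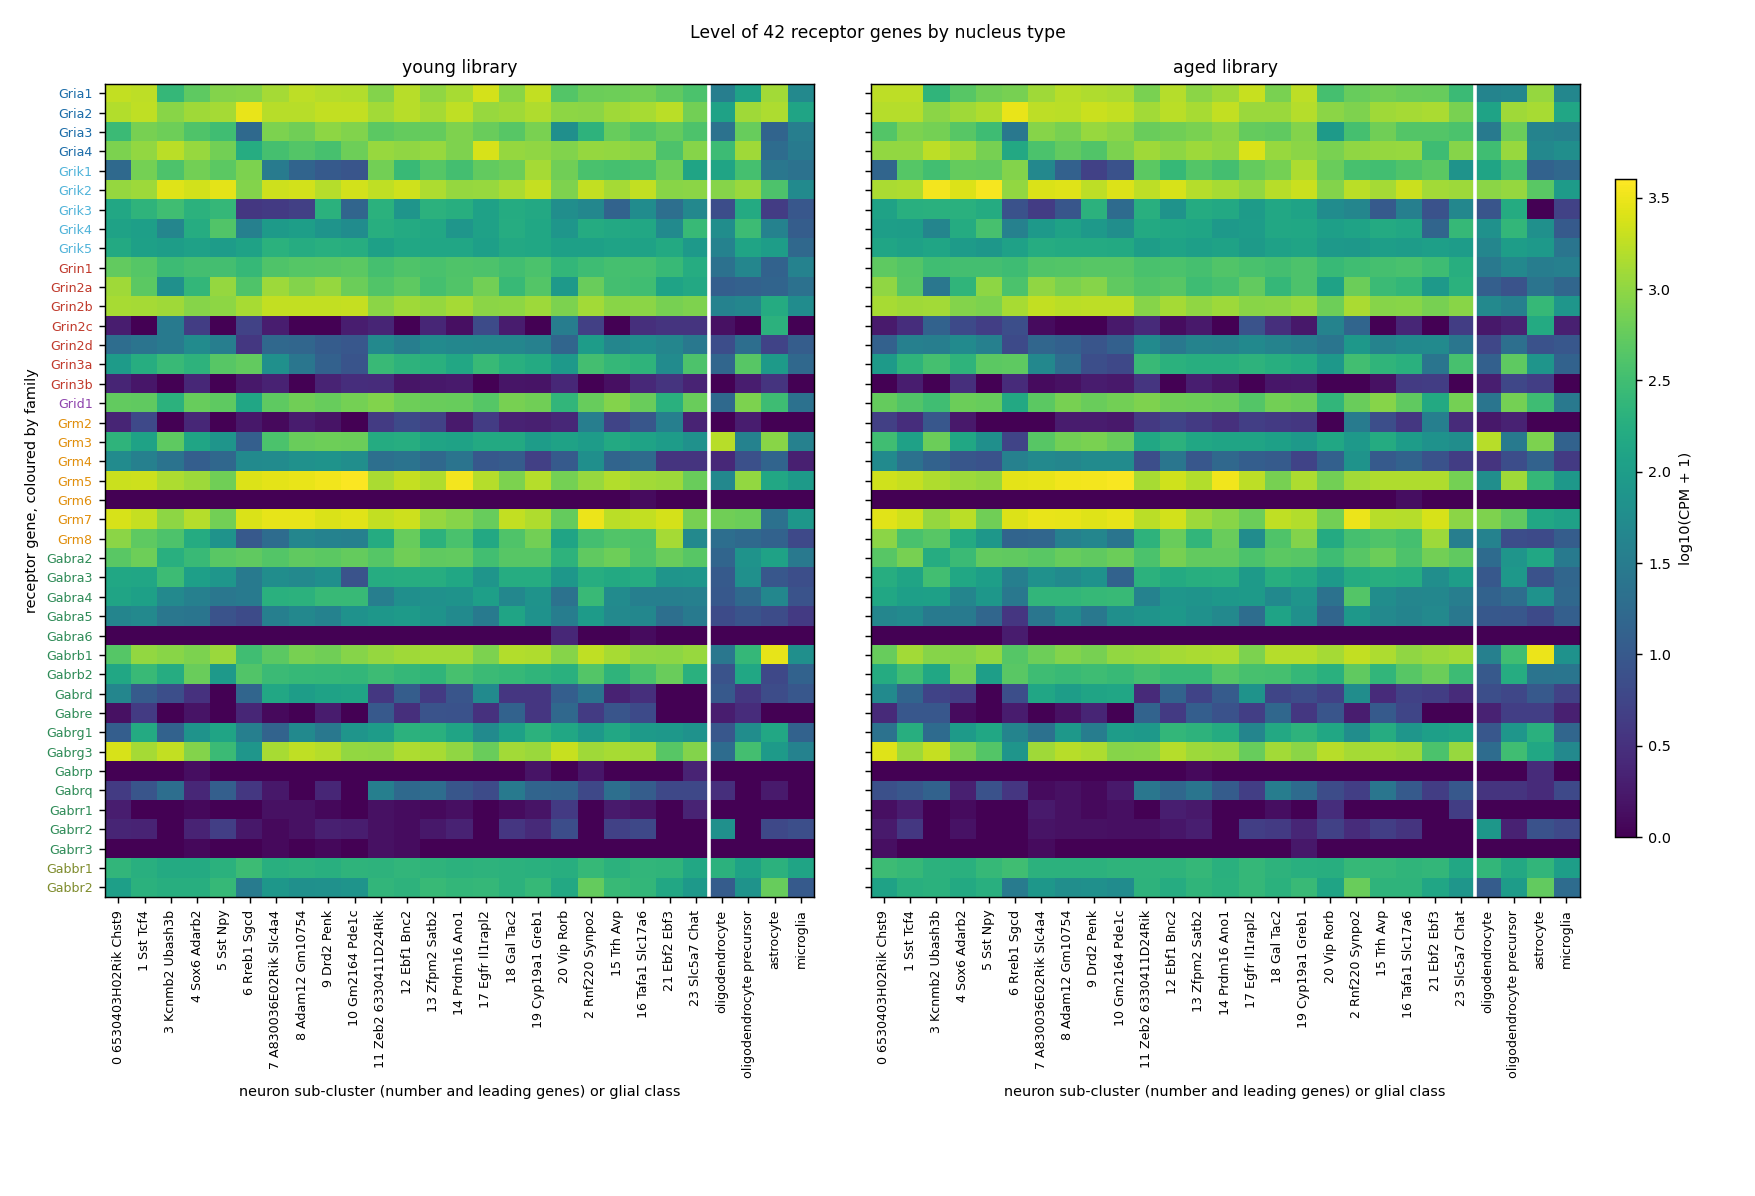
Level of 42 receptor genes as log10(CPM + 1) in the 23 neuron sub-clusters and 4 glial classes (columns, young library left, aged library right), with genes in rows coloured by family. Rows are to be read across, since CPM is not scaled for gene length. Grm3 is brightest in oligodendrocytes at 1644 and 1628 CPM in the young and aged library, and Grin2c in astrocytes at 205.2 and 156.5 CPM.

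Per kilobase of gene span, the scale on which different genes are compared here, Grin1 and Gria2 stood highest in neurons. This order depends on the scale, which takes reads to come from the whole span, and the treatment of intronic reads is not stated. In CPM alone, Grm5 (2098 and 2015) and Grm7 (2092 and 1996) stood highest, and Grin1 was at 384.0 and 385.5. Grin1, the obligatory NMDA receptor subunit, was at 13.7 and 13.8 CPM per kilobase, and Gria2, the AMPA subunit that sets low calcium permeability, was at 12.5 in both libraries. Gria2 made up 60.3% and 61.0% of the summed AMPA subunit level per kilobase. Gabbr1 was the third at 7.66 and 6.99 CPM per kilobase, while its partner Gabbr2 was at 0.518 and 0.558. Grik2 led the kainate subunits at 2.76 and 2.44, and Grm5, a Gq-coupled receptor, the metabotropic receptors at 3.81 and 3.66. Among GABA-A subunits Gabra2 (3.62 and 3.47) and Gabrd (3.37 and 3.05) were close together on this scale. In CPM they were far apart, at 500.0 and 480.0 for Gabra2 and 44.3 and 40.0 for Gabrd. Gabra6, Gabrp, Gabrr1, Gabrr3 and Grm6 had between 2 and 40 UMIs in all neurons of both libraries together and were not compared between ages.

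AMPA subunits divided the neuron types. Gria2 was highest in the sub-cluster led by Rreb1 and Sgcd, which also expressed Drd3 (sub-cluster 6), at 3048 and 3039 CPM, against medians over sub-clusters of 1377 and 1352. In the same nuclei Gria3 was at 26.8 and 16.1 CPM, the lowest of all sub-clusters, and Gria4 at 149.3 and 170.6 CPM, again the lowest. These nuclei thus had the highest level of 1 AMPA subunit gene and the lowest levels of 2 others, in both libraries. The sub-cluster led by Egfr, Il1rapl2 and Kit (17) lay at the other end, with the highest Gria1 (1979 and 2364 CPM) and the highest Gria4 (2501 and 2402 CPM). Gria3 was highest in the nuclei led by Drd2, Penk and Adora2a (9), at 1100 and 967.4 CPM.

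Kainate receptor subunits differed widely between neuron types. Grik1 was highest in the sub-cluster led by Cyp19a1 and Greb1 (19), with 1443 and 1305 CPM, and was at 4.00 and 9.47 CPM in the Drd2 and Penk sub-cluster. Grik3 was high in those same Drd2 and Penk nuclei, at 205.2 and 200.6 CPM, while the sub-cluster led by Gm2164 and Pde1c (10) held 17.4 and 13.8 CPM. The Drd2 and Penk level was the highest in the aged library only. In the young library Grik3 was highest in sub-cluster 3, at 309.2 CPM. The lowest levels were 3.36 CPM in sub-cluster 7 (aged) and 2.81 CPM in sub-cluster 6 (young). Grik2 was highest in the small Sst and Npy sub-cluster (5), at 3609 and 2861 CPM, and Grik4, a high-affinity subunit that needs a Grik1 to Grik3 partner, was highest there too at 358.4 and 416.8 CPM. Grik5, the other high-affinity subunit, ranged only from 78.8 to 167.2 CPM over aged and from 88.1 to 195.2 CPM over young sub-clusters.

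Among NMDA subunits, Grin1 ranged from 179.4 to 504.5 CPM over aged and from 170.0 to 542.8 CPM over young sub-clusters. Its partners, the GluN2 and GluN3 subunits, set the channel's kinetics and calcium entry. Grin2b ran from 641.0 to 1876 CPM over aged and from 718.7 to 1906 CPM over young sub-clusters. Grin2a was at 991.6 and 1203 CPM in the sub-cluster led by Chst9 and Tshz1 (0) but at 25.4 and 63.8 CPM in the sub-cluster led by Kcnmb2 with Pvalb (3). Grin2c, which is best known from cerebellar granule cells and astrocytes, was highest among neurons in the sub-cluster led by Vip, Rorb and Avp (20), genes of the suprachiasmatic nucleus, at 39.6 and 32.5 CPM, against medians of 1.43 and 0.963. These 2 values rest on 20 and 21 UMIs. Grin3a was highest in the Rreb1 and Sgcd sub-cluster (508.7 and 543.2 CPM) and lowest in the Gm2164 and Pde1c sub-cluster (5.03 and 7.70 CPM), and Grin2d was highest in sub-cluster 2, led by Rnf220, Synpo2 and Tcf7l2, at 80.9 and 97.0 CPM. Grin3b had 45 aged and 55 young UMIs in all neurons.

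The delta receptors bind cerebellins at synapses. Grid1 was lowest in the Rreb1 and Sgcd sub-cluster, at 150.2 and 134.1 CPM. The metabotropic genes had different peaks. Grm2, a Gi-coupled presynaptic receptor, was at 35.0 and 34.6 CPM in the Ebf2 and Ebf3 glutamatergic sub-cluster (21) and at 30.8 and 33.8 CPM in sub-cluster 2, against medians of 2.86 and 1.38. Its relative Grm3 was highest in the Drd2 and Penk sub-cluster (742.7 and 635.0 CPM) and at 4.47 and 11.2 CPM in the Rreb1 and Sgcd sub-cluster. Grm5 was highest in the Gm2164 and Pde1c sub-cluster (3634 and 3768 CPM), Grm7 in sub-cluster 2 (3146 and 3084 CPM) and Grm8 in the Ebf2 and Ebf3 sub-cluster (1178 and 1297 CPM).

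GABA-A subunits were as uneven. Gabrd, whose protein replaces gamma in extrasynaptic receptors, was between 99.3 and 141.2 CPM in 4 sub-clusters in both libraries, those with Drd1 (7 and 8) or Drd2 (9) among their leading genes and the Gm2164 and Pde1c one (10), against medians over sub-clusters of 5.76 and 7.85. Gabra4, a known alpha partner of delta, was at 261.8 and 264.4 CPM in sub-cluster 10 but higher still in sub-cluster 2, at 426.3 and 275.7 CPM. The Chst9 and Tshz1 nuclei had the highest Gabrg3, at 2641 and 2390 CPM, whereas the Rreb1 and Sgcd nuclei had the lowest, at 75.1 and 77.2 CPM. Gabra3 was highest in the Kcnmb2 and Pvalb sub-cluster (325.5 and 290.1 CPM), Gabra5 in the Gal, Tac2 and Nts sub-cluster (120.8 and 126.6 CPM) and Gabrg1 in the Ebf1 and Bnc2 sub-cluster (241.2 and 207.7 CPM). Gabbr1 varied little, from 144.2 to 309.3 CPM over aged sub-clusters, but Gabbr2 ran from 30.4 CPM in the Rreb1 and Sgcd sub-cluster to 590.0 CPM in sub-cluster 2.

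Some GABA-A genes lie side by side in the genome, and their levels over the 23 sub-clusters were compared as a description. For the 15 pairs of members within 2 Mb of each other on a chromosome, the median Pearson correlation was 0.51 and 0.63, against 0.08 and 0.11 for the 688 other pairs. These values cover the 38 members with a median level of at least 2 CPM, and the points share library, depth and the same nuclei. All 15 neighbouring pairs were of GABA-A genes, while the 688 others also paired genes of different families. Distance and family therefore cannot be told apart here. The chromosome 5 group was mixed: Gabrb1 and Gabrg1 gave 0.74 and 0.73, while Gabra4 gave -0.38 and -0.33 with Gabrg1. Among pairs farther apart, Gabbr2 with Grin2d gave 0.89 and 0.91 and Gabra4 with Gabrd 0.80 and 0.81. At the other end, Gabrd with Grik1 gave -0.70 and -0.71. The annotated spans of Gabra4 and Gabrb1 overlap by 0.196 kb on opposite strands, and 17 of the members, Gabra5 among them, overlap some other listed gene, so their values are uncertain. Without strand in the counting, which the sources used here do not state, reads of such a pair cannot be told apart.

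Glutamatergic and GABAergic neurons were then compared within each library, which asks how receptor RNA differs between the nuclei that release each transmitter. Of 41 members compared in the aged library, 11 were past the fold on the glutamatergic side, where 16.6% of all genes were, and 10 on the GABAergic side, where 12.2% of all genes were. In the young library 12 of 42 were past it on the glutamatergic side (15.8% of all genes) and 9 on the GABAergic side (10.4% of all genes). Grm2 had the largest ratio of the members compared, with 13.4 CPM in glutamatergic and 1.95 CPM in GABAergic neurons of the aged library, a ratio of 6.87 (interval 5.05 to 9.38), and a ratio of 7.002 (5.24 to 9.40) in the young library. Gabbr2 (322.2 against 142.3 CPM aged, 309.0 against 157.9 CPM young) and Grin2d (55.6 against 27.7 and 53.1 against 30.4 CPM) were also on the glutamatergic side. On the GABAergic side were Grik3, at 28.3 against 118.6 CPM (aged) and 38.2 against 133.6 CPM (young), Gria1 (618.4 against 1191 and 715.4 against 1282 CPM), Grm3 (114.3 against 311.0 and 129.0 against 279.9 CPM) and Grm5 (1432 against 2251 and 1363 against 2184 CPM).

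A few members had different ratios in the 2 libraries. Gabra4 was at 157.8 CPM in glutamatergic and 128.8 CPM in GABAergic neurons of the aged library, a ratio of 1.23 (1.15 to 1.31), but at 88.1 against 119.0 CPM in the young library, a ratio of 0.740 (0.689 to 0.795). Gabrd was at 18.4 against 50.1 CPM in the aged library, a ratio of 0.368 (0.308 to 0.437), and at 8.53 against 47.7 CPM in the young library, a ratio of 0.179 (0.142 to 0.222). Grin2c gave 2.20 (1.43 to 3.33) in the aged and 0.882 (0.481 to 1.52) in the young library, and Grm4 gave 0.991 (0.851 to 1.15) and 0.615 (0.530 to 0.710). Sub-cluster 2 made up 19.1% of aged and 11.7% of young glutamatergic nuclei, and without it the aged over young ratios of these 4 genes in glutamatergic neurons were all below 1, with the values given further on. Whether the ratios differ between the ages was not tested.

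**Figure D2:**
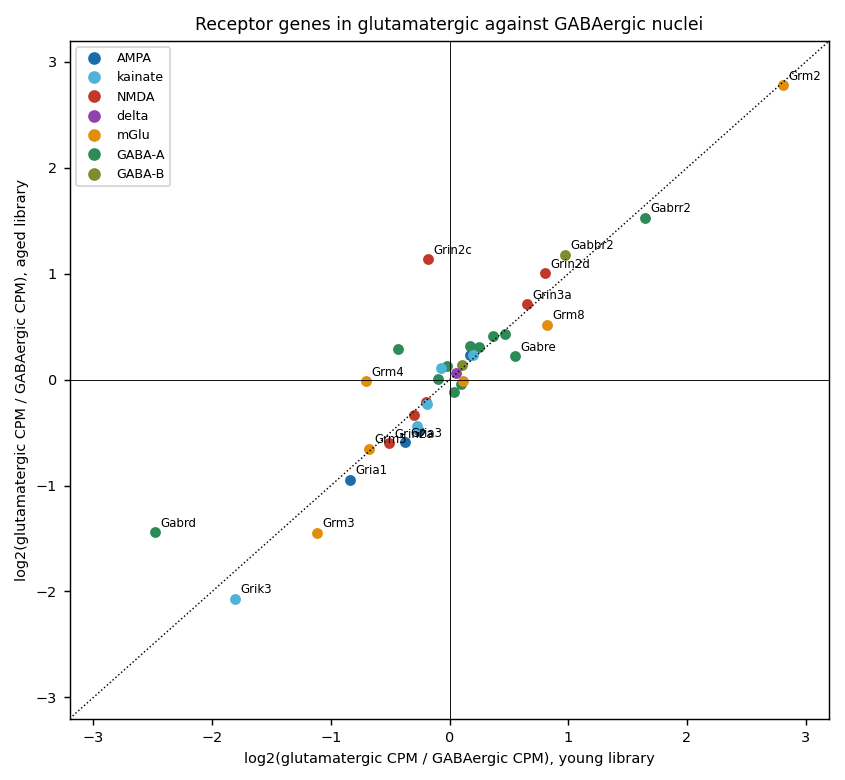
The log2 ratio of CPM in glutamatergic over GABAergic neurons for receptor genes with at least 50 UMIs in both libraries, young library on the horizontal and aged library on the vertical axis, coloured by family, with the dotted line marking equal ratios. Many points lie near the line, from Grik3, at ratios of 0.286 and 0.238, to Grm2, at 7.002 and 6.87, and Gabrd, Gabra4, Grin2c and Grm4 lie above it.

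Between the ages, receptor genes in neurons as a whole lay close to a ratio of 1. Of the 42 members compared, 2 were past the fold and both were higher in the aged library, against 18.7% of all genes, of which 7.98% were higher and 10.7% lower. The 2 were low-count genes. Gabre, the epsilon subunit of GABA-A receptors, had 213 aged and 200 young UMIs, 4.57 against 3.59 CPM, a ratio of 1.28 (1.05 to 1.56), and Grin2c had 114 and 100 UMIs, 2.45 against 1.79 CPM, a ratio of 1.37 (1.04 to 1.81). With nuclei limited to at most 1% mitochondrial UMIs, neither was past the fold, with ratios of 1.244 and 1.305. The median log2 ratio of the members was 0.06, beside 0.02 for all genes, and 25 members lay above and 17 below a ratio of 1. Many receptor genes have high counts in these nuclei, and low counts widen ratios. Among the 37 members with at least 1000 UMIs 0 were past the fold. Of the 10449 genes with as many UMIs 11.5% were past it, 4.69% higher and 6.79% lower.

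Within that range some intervals left out 1. Gabrg1, a gamma subunit, had a ratio of 1.19, Gabra4 1.18 and Gabrb2 1.15, and Gria3 (1.14), Grik2 (1.13) and Gabrb1 (1.12) followed. Gria2, Grin1 and Gabrg3 stood at 1.00, 0.996 and 0.993. At the low end were Grik5, at 121.7 against 141.2 CPM (ratio 0.862, 0.833 to 0.892), Grm4 (27.7 against 31.8 CPM, 0.871), Grin2a (510.9 against 573.9 CPM, 0.890) and Grik3 (103.0 against 115.3 CPM, 0.893). Grin2b was at 1257 and 1302 CPM and the theta subunit gene Gabrq, not yet named, at 10.4 and 9.30 CPM.

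**Figure D3:**
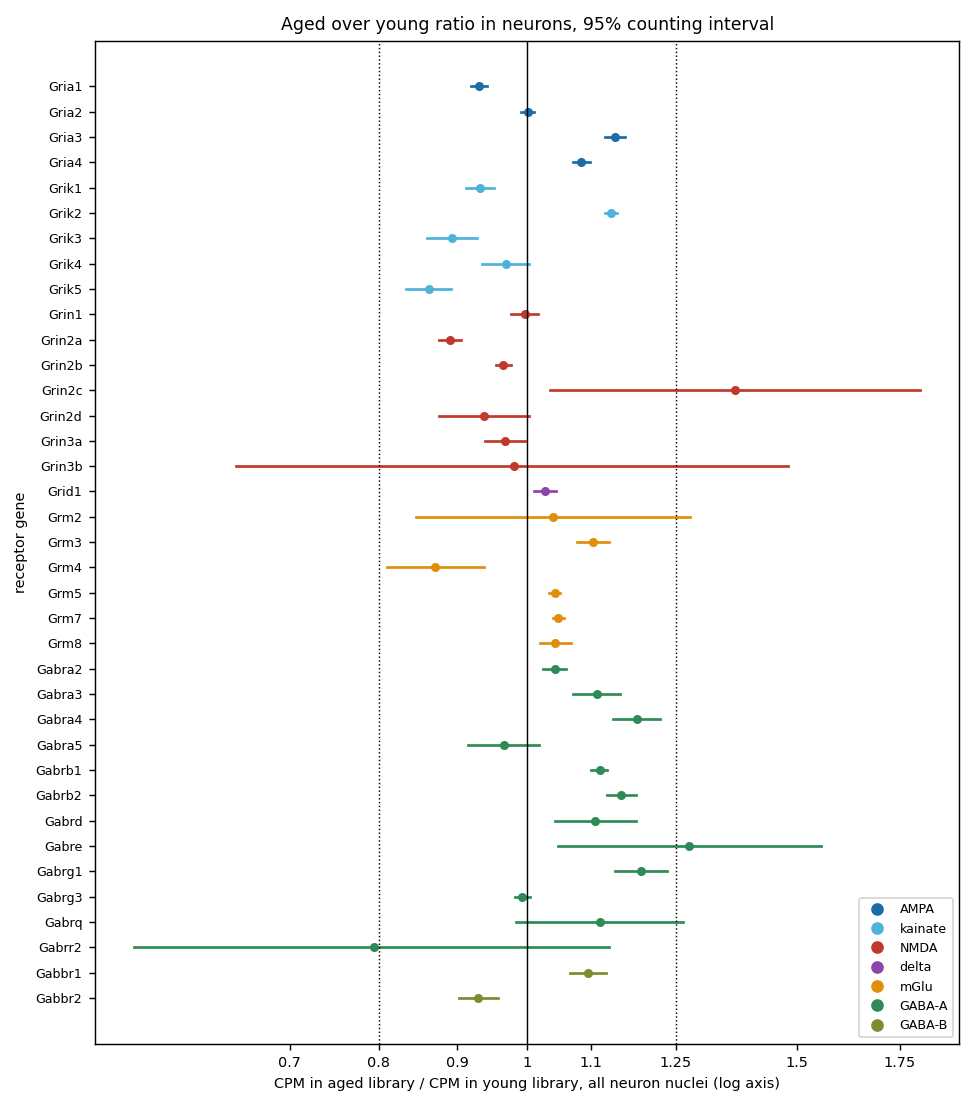
Ratio of aged over young CPM in all neuron nuclei for 37 receptor genes with at least 50 UMIs, on a log axis, with points for the ratio, bars for the 95% counting interval and dotted lines at 20% lower and 25% higher. Points of most genes lie between the dotted lines, while Gabre at 1.28 and Grin2c at 1.37 lie beyond them with wide intervals. Gabrr2, at 0.794, has an interval that includes 1.

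The ratios were then taken within each neuron sub-cluster, so that differing shares of the sub-clusters do not enter. The sub-clusters share a library and are not replicates of an age. Gabrb2 was above a ratio of 1 in 22 of 23 sub-clusters and Grik2 in 20 of 23, with 3 and 4 past the fold, where 7.16% of all gene values in the 23 sub-clusters were past it on the higher side. Gabrg1 was past it on the higher side in 8 of 22 sub-clusters and on the lower side in 1.

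On the lower side, where 7.53% of all gene values were past the fold, Grm4, a presynaptic Gi-coupled receptor, was past it in 5 of 16 sub-clusters with a median log2 ratio of -0.43. It was at 54.0 and 70.3 CPM in the Drd2 and Penk sub-cluster and at 6.40 and 19.9 CPM in the sub-cluster led by Zeb2 (11). Grik1 was past the fold on the lower side in 5 of 22 sub-clusters and on the higher side in 1, and it was at 451.4 against 703.3 CPM in the Sst and Npsr1 sub-cluster (1). Single nuclei held 6.58% and 20.0% of the Grik1 UMIs there. Grik3 was below 1 in 17 of 19 sub-clusters with 4 past the fold, Grik5 in 19 of 22 with 2, Gria1 in 20 of 23 with 3 and Grin2a in 18 of 22 with 2. Grm8 went both ways, with 596.9 against 366.5 CPM in the Prdm16 and Ano1 sub-cluster (14) and 54.6 against 145.5 CPM in the Egfr and Kit sub-cluster.

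**Figure D4:**
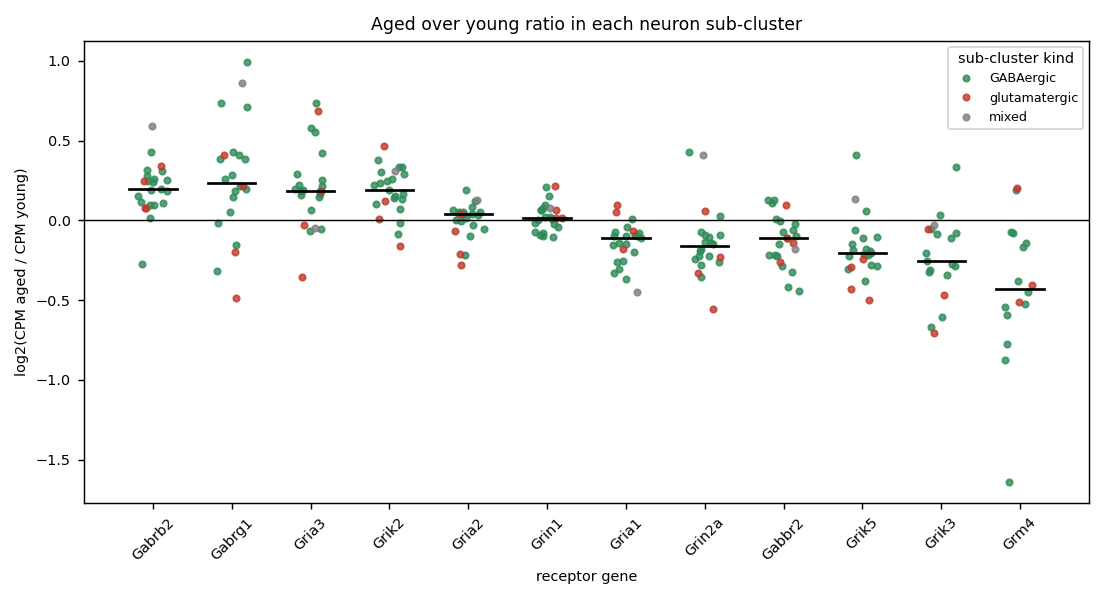
The log2 ratio of aged over young CPM in each neuron sub-cluster (points, green GABAergic, red glutamatergic, grey mixed) for 12 receptor genes, with black bars at the median over sub-clusters; only values with at least 50 UMIs are plotted. The median of Gabrb2 lies at 0.20 and that of Grm4 at -0.43.

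Members past the fold within 1 sub-cluster numbered up to 7 on the higher and up to 4 on the lower side. More were higher than lower in 12 of the 23 sub-clusters, more were lower in 5, and the numbers were equal in 6. Of all gene values in the 23 sub-clusters together, 7.16% were past the fold on the higher and 7.53% on the lower side. All genes leaned both ways too, with 10.5% higher and 7.78% lower in sub-cluster 9 and 7.73% and 11.4% in sub-cluster 2. No lean particular to the members is read from these numbers. In the Chst9 and Tshz1 sub-cluster 6 of 36 members were higher in the aged library and 0 lower, where 6.36% and 7.44% of all genes were. They were Gria3 (429.2 against 286.8 CPM), Gria4 (1026 against 777.0 CPM), Grm3 (314.4 against 218.1 CPM), Gabrb1, Grik2 and Gabrg1. In the Prdm16 and Ano1 sub-cluster 6 of 35 were higher and 0 lower, where 6.46% and 8.10% of all genes were, and Gabra3, Gabrg1, Gria4, Grin3a and Grm8 were among the 6. In the Vip and Rorb sub-cluster of 77 aged and 103 young nuclei 3 of 31 were higher, where 6.97% of all genes were, among them Gabrb1 at 1302 against 892.6 CPM and Gabra2 at 300.7 against 209.2 CPM. Gria1 was lower there, at 348.2 against 437.0 CPM, where 6.09% of all genes were lower. In the Slc5a7 and Chat sub-cluster of 31 aged and 51 young nuclei 7 of 31 were higher, where 6.58% of all genes were. Among them were Gabrb2, Gabrg1, Gabrg3, Grin2a and Grm7. Gria1 and Grik1 were lower there, where 6.10% of all genes were. In the Kcnmb2 and Pvalb sub-cluster of 26 aged and 37 young nuclei 5 of 27 were higher, where 7.74% of all genes were, among them Grid1 (308.6 against 204.0 CPM) and Grik2 (3467 against 2668 CPM). Grik3 was lower there, at 194.5 against 309.2 CPM, where 6.47% of all genes were lower.

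In other sub-clusters more members were past the fold on the lower than on the higher side, which did not hold for the direction of all members. Over all members compared, 23 lay above and 13 below a ratio of 1 in the Drd2 and Penk sub-cluster. These numbers were 15 and 19 in the Egfr and Kit sub-cluster and 14 and 13 in the Ebf2 and Ebf3 one. In the Drd2 and Penk sub-cluster 4 of 36 members were past the fold and lower and 1 higher, where 7.78% and 10.5% of all genes were. The lower ones were Grm4, Gabra5 (26.6 against 38.1 CPM), Grin3a (6.44 against 12.2 CPM) and Grik1 (4.00 against 9.47 CPM, from 18 and 52 UMIs). In the Egfr and Kit sub-cluster of 70 aged and 105 young nuclei 3 of 34 were lower and 0 higher, where 6.65% and 7.95% of all genes were. They were Grm8, Grin2a (540.2 against 689.9 CPM) and Grin3a (211.0 against 265.5 CPM). In the Ebf2 and Ebf3 glutamatergic sub-cluster of 53 aged and 80 young nuclei 3 of 27 were lower, where 6.74% of all genes were, and 2 higher, where 6.07% were. The AMPA subunits Gria3 (433.4 against 553.2 CPM) and Gria4 (300.6 against 395.2 CPM) and the kainate subunit Grik1 (499.8 against 639.7 CPM) were lower there, and Grik2 was among the 2 higher, at 1269 against 918.8 CPM. Single nuclei held 19.4% and 7.59% of the Gria3 UMIs there and 18.6% and 20.6% of those of Gria4.

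In GABAergic neurons 1 of 42 members was past the fold and higher, where 7.83% of all genes were higher and 10.5% lower. It was Gabre, at 4.51 and 3.35 CPM (ratio 1.34, 1.07 to 1.68), and 1.275, not past the fold, with at most 1% mitochondrial UMIs. In glutamatergic neurons 7 of 41 were higher in the aged library, where 8.37% of all genes were, and 2 were lower, where 10.7% were. Among the 7 were Gabra4 (157.8 against 88.1 CPM), Gabrb2 (417.2 against 333.7 CPM), Gabrd (18.4 against 8.53 CPM), Grin2c (4.47 against 1.61 CPM, from 34 and 16 UMIs) and Grm4 (27.8 against 21.3 CPM). The 2 lower genes were the kainate subunits Grik3 (28.3 against 38.2 CPM) and Grik5 (94.3 against 120.9 CPM).

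The make-up of the glutamatergic class differed between the libraries. Beside the larger aged share of sub-cluster 2, which had the highest Gabra4 and Grm4 of the 4 glutamatergic types compared, sub-cluster 22 made up 1.31% of aged and 13.3% of young glutamatergic nuclei. Without sub-cluster 2 but with sub-cluster 22 kept, 1 member was higher, and the ratios of Gabra4, Gabrd, Grin2c and Grm4 were 0.947, 0.526, 0.619 and 0.774. Without sub-cluster 22, 2 members were higher, Gabra4 and Gabrd, with ratios of 1.85 and 3.35. Within sub-cluster 2 itself Gabra4 was at 426.3 and 275.7 CPM (ratio 1.55, 1.38 to 1.74), Gabrd at 56.6 and 22.3 CPM (2.53, 1.73 to 3.80) and Gria3 at 339.4 and 211.2 CPM (1.61, 1.41 to 1.84), from 131 aged and 117 young nuclei. In that sub-cluster 3 of 37 members were higher and 3 lower, where 7.73% and 11.4% of all genes were.

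The 8 neuronal markers were also detected in every glial class, so each member's level was set beside the level that neuronal RNA in the same amount would give, called carry-over here. That level was its CPM in neurons times the median, over the 8 neuronal markers, of the marker's CPM in the class over its CPM in neurons. The median was 14.9% in aged and 12.4% in young oligodendrocytes, 20.9% and 22.0% in precursors, 15.2% and 9.85% in astrocytes and 21.5% and 20.8% in microglia. Single markers ranged widely, from 4.61% to 123.6% in aged oligodendrocytes. A member was counted as over 3 times the carry-over level where it had at least 50 UMIs in the class and the lower end of the 95% counting interval of its CPM was over that mark in both libraries. Such members numbered 6 of 35 in oligodendrocytes, 10 of 27 in precursors, 10 of 21 in astrocytes and 0 of 17 in microglia. By the CPM alone, without its interval, the astrocyte number was 14 and the others were the same.

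Oligodendrocytes stood out for 2 receptors. Grm3 was at 1628 and 1644 CPM, 5.90 and 6.58 times its level in neurons. Gabrr2, a rho subunit best known from retina, was at 79.5 and 63.8 CPM against 1.18 and 1.49 CPM in neurons and 6.54 and 6.40 CPM in the free RNA. Grik2 (940.5 and 868.9 CPM), Grik4 (64.3 and 57.5 CPM) and Gabbr1 (238.1 and 205.9 CPM) were also over 3 times the carry-over level. In the free RNA, however, Gabbr1 was at 400.4 and 327.0 CPM, Grik2 at 614.1 and 883.9 CPM and Grik4 at 52.3 and 84.4 CPM.

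All 10 members over that level in precursors were ionotropic glutamate or delta receptor genes. Gria4 was at 1112 and 1208 CPM, 1.21 and 1.43 times its level in neurons. Grin3a, a subunit that lowers calcium entry, was at 504.1 and 462.8 CPM, 3.14 and 2.79 times its level in neurons, while Grin1 (46.3 and 44.2 CPM) lay below the carry-over level. Grik4 (237.4 and 290.7 CPM) and Grik3 (160.7 and 158.0 CPM) were above their neuronal levels, and Gria2, Gria3, Grid1, Grik1 and Grik5 were also over 3 times the carry-over level. Of these, Grik5 was at 99.9 and 124.2 CPM, below its 136.5 and 142.6 CPM in the free RNA. Gria1 was the AMPA subunit that these nuclei had least of, at 45.1 and 112.9 CPM, below its carry-over level in both libraries.

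Astrocytes had a distinct set. Gabrb1 was at 3138 and 2965 CPM, 2.86 and 3.01 times its level in neurons, and Gabrg1 was at 194.2 and 145.2 CPM. Of the alpha subunits, Gabra4, at 66.5 and 44.8 CPM from 37 and 53 UMIs, was 3.31 and 4.05 times over the carry-over level by its CPM alone, and Gabra2, at 136.7 and 116.5 CPM, was 1.80 and 2.47 times over it. Gabbr2 was at 534.1 and 580.9 CPM, 3.13 and 3.16 times its level in neurons, Grm3 at 782.3 and 912.7 CPM, and Gria1 and Gria2 at 1083 and 1273 and at 1347 and 1427 CPM. Grin2c was at 156.5 and 205.2 CPM against 2.45 and 1.79 CPM in neurons, which is 63.9 and 114.4 times. Gabbr1 (235.6 and 201.8 CPM) and Grik5 (86.3 and 99.6 CPM) were also over 3 times the carry-over level. Both lay below their levels in the free RNA, 400.4 and 327.0 CPM for Gabbr1 and 136.5 and 142.6 CPM for Grik5. In microglia none of the 17 members with at least 50 UMIs was over 3 times the carry-over level in both libraries, and of these Gabbr1 came nearest at 2.16 and 2.93 times. Gabrr2, with 5 aged and 6 young microglial UMIs, was at 5.22 and 6.29 CPM, 20.6 and 20.4 times over it, beside 6.54 and 6.40 CPM in the free RNA.

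Promoter windows of 4 members are printed: Gabrr2, Grm3 and Grin2c, named above for glia, and Gabra4, highest among neuron sub-clusters in sub-cluster 2. The windows are the 250 bases before the RefSeq start on GRCm38.p6, on the gene's own strand, and 32 of the 47 members had such a window. The GENCODE annotation used for gene spans places the start elsewhere for Gabrr2 (33062999, inside the window) and Grm3 (9725170). Capitals mark matches, on either strand, to the letters searched: TGACGTCA (CRE), GCGTGGGCG (EGR), ACAAAG and ACAATG (SOX), TTGGCA (NFI) and GGGCGG (SP), overlapping matches included. None of these motifs contains another.
Gabrr2 (oligodendrocytes; chr4:33062862-33063111, plus strand): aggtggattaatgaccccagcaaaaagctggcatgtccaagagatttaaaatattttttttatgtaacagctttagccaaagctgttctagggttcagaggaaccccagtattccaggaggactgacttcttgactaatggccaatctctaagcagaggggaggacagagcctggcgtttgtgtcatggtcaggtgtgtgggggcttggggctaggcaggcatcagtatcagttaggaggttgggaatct
Grm3 (oligodendrocytes and astrocytes; chr5:9725353-9725602, minus strand): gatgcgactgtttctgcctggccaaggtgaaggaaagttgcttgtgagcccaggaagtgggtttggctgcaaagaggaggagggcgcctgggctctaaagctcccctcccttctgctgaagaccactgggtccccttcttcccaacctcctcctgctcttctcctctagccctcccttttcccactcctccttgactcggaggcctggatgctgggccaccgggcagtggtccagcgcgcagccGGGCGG
Grin2c (astrocytes; chr11:115267244-115267493, minus strand): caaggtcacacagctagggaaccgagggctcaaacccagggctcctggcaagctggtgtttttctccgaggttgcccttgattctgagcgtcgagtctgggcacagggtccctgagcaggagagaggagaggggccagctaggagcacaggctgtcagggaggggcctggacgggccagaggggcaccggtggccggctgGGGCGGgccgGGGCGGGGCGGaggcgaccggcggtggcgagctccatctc
Gabra4 (sub-cluster 2; chr5:71658309-71658558, minus strand): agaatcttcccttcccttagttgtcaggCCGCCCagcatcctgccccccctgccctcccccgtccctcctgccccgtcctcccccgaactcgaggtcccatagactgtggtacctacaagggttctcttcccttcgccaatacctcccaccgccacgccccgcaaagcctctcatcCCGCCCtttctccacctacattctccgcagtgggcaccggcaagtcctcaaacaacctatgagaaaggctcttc
The SP letters occurred in Grm3, Grin2c and Gabra4 and in 32.7% of all 32851 windows of this length. None of the other letters occurred in these 4 windows, and Gabrr2 held no match. The SOX letters ACAAAG were in 16.5%, ACAATG in 10.7%, the NFI letters in 12.3%, CRE in 1.55% and EGR in 0.536% of all windows. A match or its absence describes these letters only.

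**Figure D5:**
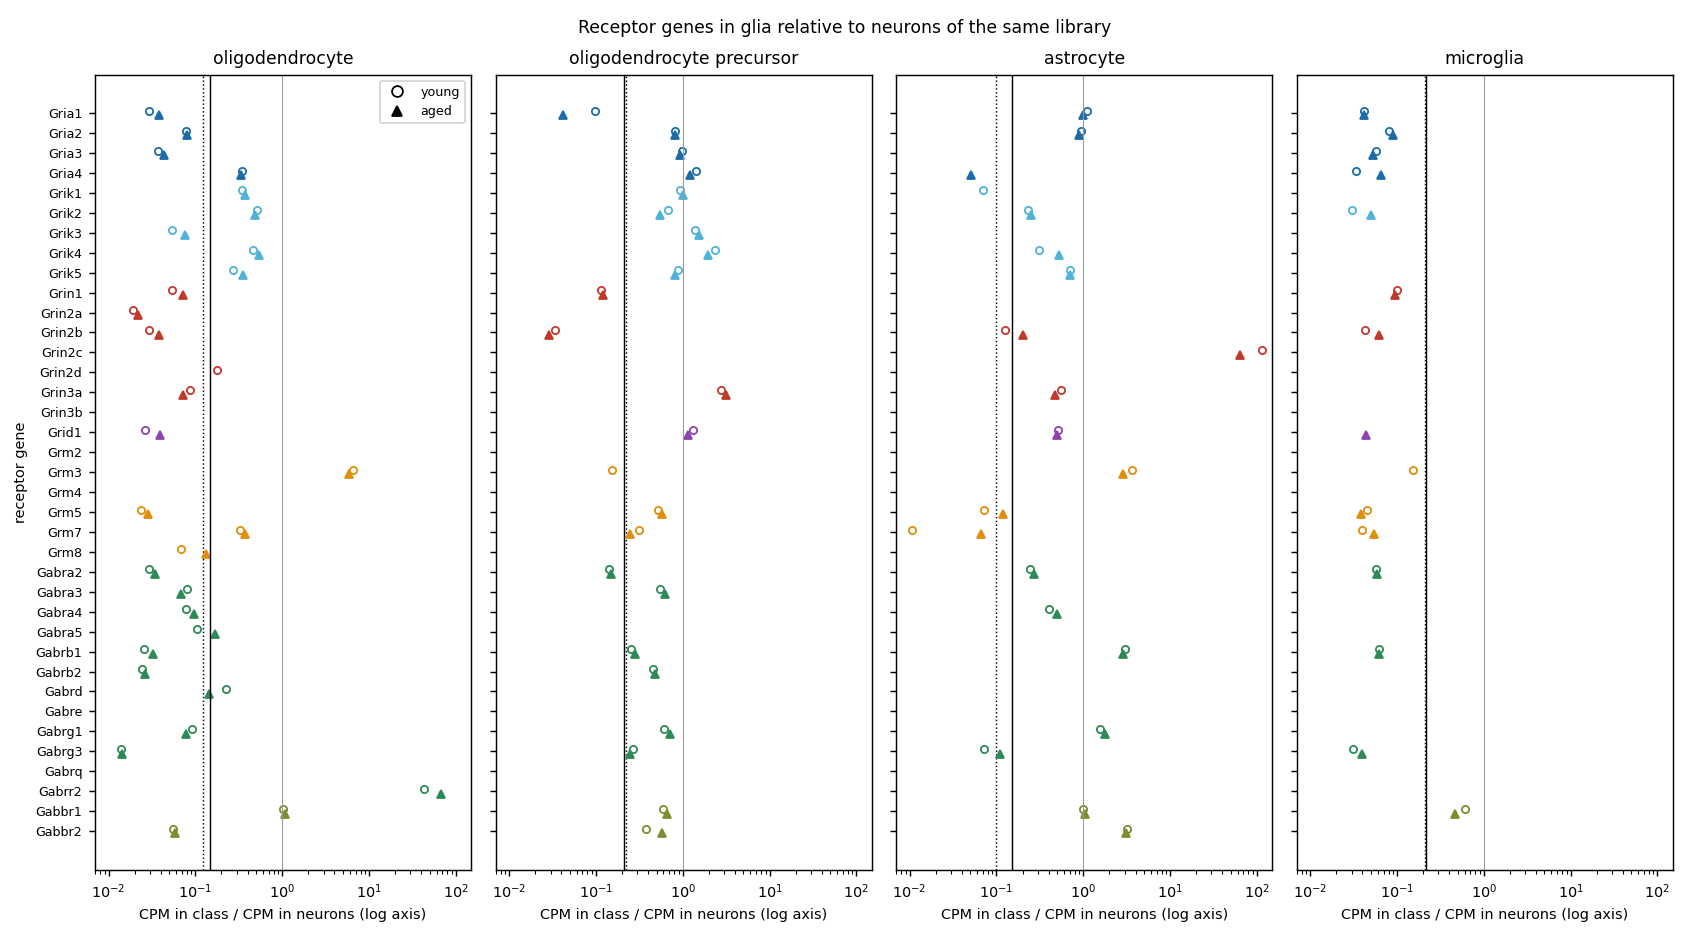
Level of receptor genes in 4 glial classes divided by their level in neurons of the same library, on a log axis (open circles young, filled triangles aged; values with at least 25 UMIs in the class). Black lines mark the median carry-over of neuronal markers (solid aged, dotted young) and the grey line equal levels. Gabrr2 and Grm3 in oligodendrocytes and Grin2c in astrocytes lie farthest to the right, and no microglial point lies beyond 3 times the black line in both libraries.

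Between the ages, 7 of 35 members were past the fold in oligodendrocytes, all higher in the aged library, where 14.1% of all genes were higher and 4.74% lower. Grm8 had the largest ratio, at 38.9 against 19.2 CPM (2.03, 1.55 to 2.68). Among the others were Grid1 (23.7 against 15.7 CPM), Gabrb1 (35.5 against 25.5 CPM), Gria3 (28.9 against 21.7 CPM), Grin2b (47.9 against 37.9 CPM) and Grm5 (59.7 against 47.4 CPM). None of these 7 was over 3 times the carry-over level in both libraries, and the 8 neuronal markers were higher too, with a sum of 661.8 CPM in aged and 518.0 CPM in young oligodendrocytes and none at 0. The part of this carry-over in the ratios was not tested. Grm3, which had the highest CPM of the members in these nuclei without scaling for gene span, gave 0.991 (0.958 to 1.02). Gabrr2 gave 1.246 (1.06 to 1.47), just under the fold.

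In precursors 2 of 27 members were past the fold, 1 in each direction, where 7.95% of all genes were higher and 7.12% lower. Markers of other glia differed here too. The 9 oligodendrocyte markers summed to 506.5 CPM in aged and 1618 CPM in young precursors and the 8 astrocyte markers to 826.8 and 619.9 CPM, while the 8 neuronal markers summed to 730.6 and 754.4 CPM, with none of these markers at 0. Their part in the ratios was not tested. Gria1 was at 45.1 and 112.9 CPM, from 37 and 120 UMIs (ratio 0.399, 0.268 to 0.581), and single nuclei held 16.2% and 17.5% of these UMIs. With predicted doublets kept the ratio was 0.922 (0.772 to 1.1). In both libraries Gria1 lay below its carry-over level, which was 227.5 and 256.8 CPM. Gabbr2 was at 97.4 against 69.6 CPM (1.40, 1.01 to 1.95), and without the nucleus that held most of it in each library at 1.35 (0.962 to 1.90). Its level was 2.72 and 1.72 times the carry-over level.

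In astrocytes 8 of 21 members were past the fold, 7 higher and 1 lower, where 7.42% and 5.32% of all genes were. Among the 7 were Grm7 (140.3 against 21.1 CPM), Grm5 (248.2 against 144.4 CPM), Grik4 (63.0 against 38.0 CPM), Grin2b (253.6 against 163.8 CPM), Gabrg3 (136.7 against 91.2 CPM) and Gabrg1 (194.2 against 145.2 CPM). Gabrg1 was the 1 gene of these over 3 times the carry-over level in both libraries with its interval, and Grik4 was by its CPM alone. With predicted doublets kept 3 members were higher, and Grm5 had a ratio of 0.7735, with a log2 ratio of -0.37, on the lower side. The 8 neuronal markers summed to 669.0 CPM in aged and 363.1 CPM in young astrocytes with none at 0, and 1 aged nucleus of 14328 UMIs led 11 of the 28 members with at least 10 UMIs. Single nuclei held 33.3% of the aged Grm7 UMIs and 32.6% of those of Grm5. Without the nucleus with the most receptor UMIs in each library, 4 were higher and 0 lower, Gabrg1, Grin2b and Grm7 among them. The part of neuronal RNA in these ratios was not tested. The lower gene was Grin2c, from 87 and 243 UMIs at 156.5 against 205.2 CPM (ratio 0.763, 0.590 to 0.978), and 0.783 (0.604 to 1.01) without those nuclei.

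In microglia 3 of 17 members were past the fold, all higher in the aged library, where 9.34% of all genes were higher and 6.30% lower. They were Gria4 (59.6 against 28.3 CPM), Grik2 (95.1 against 51.4 CPM) and Grm7 (112.9 against 79.7 CPM), and single nuclei held 28.1%, 23.1% and 55.6% of their aged UMIs. Without the leading nucleus of each library, Grm7 gave 0.887 (0.589 to 1.33). Here 1 aged nucleus of 11802 UMIs held 17.7% of all receptor UMIs, and the neuronal markers summed to 724.1 and 709.5 CPM with none at 0. Their part in these ratios was not tested.

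The auxiliary proteins and scaffolds that hold these receptors at synapses were followed in neurons through 5 lists. Of 16 AMPA and kainate receptor auxiliary subunits, 1 was past the fold on the higher side and 4 on the lower, with a median log2 ratio of -0.18. Cacng8, which slows AMPA receptor kinetics, was at 65.2 and 94.1 CPM (ratio 0.693, 0.662 to 0.724), Cnih3 at 15.5 and 21.5 CPM and Cacng7 at 56.6 and 73.8 CPM, whereas Cnih2, another AMPA receptor partner, was at 46.9 and 35.1 CPM (1.34, 1.26 to 1.42). Of 20 excitatory scaffold genes, 0 were higher and 3 lower, with a median of -0.16, Dlg4 (PSD-95) at 82.6 and 107.1 CPM and Shank2 at 146.2 and 187.2 CPM among them. Of 13 inhibitory scaffold and GABA receptor partners, 1 was lower, Iqsec3 at 94.9 and 124.7 CPM, and the median was 0.07.

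Of 8 delta and metabotropic receptor partners with at least 50 UMIs, 1 was higher and 1 lower. Cbln1, a secreted synapse organizer, was at 5.48 and 3.16 CPM (ratio 1.74, 1.43 to 2.12), and Elfn1, which recruits metabotropic receptors, was at 20.2 and 29.3 CPM (0.689, 0.635 to 0.747). Of 5 glycine receptor subunits 1 was lower, Glra4, at 1.53 and 2.89 CPM from 71 and 161 UMIs. The shares of all genes past the fold in neurons, 7.98% higher and 10.7% lower, apply to these lists too.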

How the data were processed

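Single-nucleus libraries of 1 aged and 1 young pool were analysed. The authors deposited UMI counts per gene and barcode, whole numbers and not normalized, made with Cell Ranger 4 per the file headers. The genome build, the annotation and the treatment of intronic and antisense reads are not stated in the labels or headers used here. The receptor genes, gene lists and comparisons were chosen with earlier results of these data known. The deposited totals were 79107368 UMIs over 1967507 aged barcodes and 87520038 over 1984763 young barcodes.

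Barcodes with at least 500 genes and at most 5% mitochondrial UMIs were kept (8597 aged and 10437 young), and Scrublet marked 368 and 489 of them as doublets, which were left out. Nuclei were scaled to 10000 UMIs and clustered without the receptor genes (2000 variable genes, 30 components, 15 neighbours, Leiden resolution 1), and clusters were named from marker lists with at least 3 markers detected. Raw UMIs were summed per library and class or sub-cluster with at least 20 nuclei in each library. Ratios have exact conditional binomial intervals, whose calculation was checked on simulated Poisson counts. That simulation follows the model of the interval and leaves out the uneven spread of UMIs over nuclei, so it does not show coverage for the real counts. With 1 library per age there was no test, and intervals cover counting error only. Named are the members past the fold in a class, the highest of each family in neurons, the sub-cluster where a named member was highest, and at most 10 pathway genes past the fold, by the interval bound nearest 1; other genes and sub-clusters were picked after their values were seen. Of the 47 receptor genes, 5 enter the counts but are not reported individually here. Gene spans and positions are from GENCODE M21 (GRCm38), matched by Ensembl ID, and promoters from RefSeq (GRCm38.p6). Python 3.11.15, numpy 2.4.6, scipy 1.17.1, scanpy 1.11.5 and matplotlib 3.10.9 were used.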

Additional observations from a re-analysis of the deposited data

Results flagged for a closer look

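Grin2c, an NMDA receptor subunit gene, lay on opposite sides of a ratio of 1 in 2 classes. Its log2 ratio of aged over young CPM was 1.48 in glutamatergic neurons, from 34 aged and 16 young UMIs, and -0.39 in astrocytes, from 87 and 243 UMIs. The difference between the classes was not tested, since each age was 1 library. Without sub-cluster 2 the glutamatergic value was -0.69, and without the astrocyte nucleus with the most receptor UMIs in each library the astrocyte value was -0.35 with an interval that included a ratio of 1.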

How the results depend on the processing

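No paired analysis was possible because each age was 1 library, and for the same reason no replicate could be left out. The values below are numbers of receptor genes past the fold or median log2 ratios, and where no value shows the cause of a move, the cause was not tested. Keeping only nuclei of 1000 or more genes gave 5 higher genes and a median of 0.386 in microglia. With at most 1% mitochondrial UMIs, 0 were higher in neurons, 0 in GABAergic neurons, 3 in oligodendrocytes and 0 in precursors, and 2 were lower in precursors. With doublets kept, 2 were higher in GABAergic neurons, 2 higher and 3 lower in precursors, 3 higher in astrocytes (median 0.0328) and 6 higher and 1 lower in microglia (median 0.231), and Grm5 in astrocytes turned to -0.37. Clustering with the receptor genes gave a microglial median of 0.257, and Leiden resolution 2 gave 0 higher and 2 lower in precursors. Median-of-ratios scaling, which shifted log2 ratios by 0.02 to 0.08, gave 1 lower in GABAergic neurons, 4 higher in oligodendrocytes, and 0 higher and 2 lower in precursors. A minimum of 10 UMIs gave 12 higher in astrocytes and 1 lower in microglia. A minimum of 200 tested fewer genes and gave 0 higher and 0 lower in precursors, 3 higher in astrocytes (median 0.0636) and 0 higher in microglia (median -0.0666, a reversal).

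A fold of 1.1 gave 12 higher and 4 lower in neurons, 10 and 5 in GABAergic and 11 and 7 in glutamatergic neurons, 3 and 3 in precursors, and 3 lower in astrocytes. A fold of 1.5 gave 0 higher in neurons and in GABAergic neurons, 3 higher and 0 lower in glutamatergic neurons, 3 higher in oligodendrocytes, 0 higher in precursors and 0 lower in astrocytes. With free RNA subtracted, 1 was lower in neurons, 2 higher in GABAergic neurons, 4 higher and 0 lower in precursors, 0 lower in astrocytes (median 0.0950) and 0 higher and 1 lower in microglia (median -2.29, a reversal that rests on 1 gene).

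The following were chosen after seeing the data. With sub-clusters weighted alike, 2 were higher and 1 lower in GABAergic neurons and 3 higher and 1 lower in glutamatergic neurons, where the median (-0.0282) and Grm4 (-0.029) reversed. Without sub-cluster 22, 2 were higher in glutamatergic neurons, and without sub-cluster 2, 1 was, with Gabra4 (-0.0786), Gabrd (-0.93), Grin2c (-0.69) and Grm4 (-0.37) reversed. Without the astrocyte nucleus with the most receptor UMIs in each library, 4 were higher and 0 lower in astrocytes. Without its top nucleus Grm7 in microglia was -0.17. Among genes of 1000 or more UMIs, 0 were higher in neurons. Ratios of genes with few UMIs are limited by depth, as their intervals show.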
